A study of Mus musculus with 8 samples.

Results

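The spindle checkpoint and the anaphase-promoting complex (APC/C) are described here through 10 genes, out of 22238 protein-coding genes of the GENCODE M1 annotation: Bub1, Bub1b, Bub3, Mad2l1, Ttk, Cdc20, Ube2c, Fbxo5, Fzr1 and Anapc7. They were chosen by name, and for each of them every deposited site within 1 kb of an annotated start site, and separately within 5 kb, was read out with its position and score. Binding of E2f3 and of Myc was mapped in mouse intestine by ChIP-exo-seq, a form of ChIP-seq that uses an exonuclease to cut DNA back to the edge of the bound protein. The 8 groups were Rb KO villus and control villus, and Rb KO crypt and control crypt, each precipitated with an E2f3 and with a Myc antibody. Villi hold the differentiated cells of the epithelium and crypts its dividing cells. In Rb KO mice, Rb had been deleted by Ah-cre, an inducible Cre recombinase active in the intestine. The control mice were labelled wild type. All mice had the same mixed background of C57BL/6, 129 and FVB/N. The sources used here do not give the age of the mice, the time since induction or whether the controls carried Ah-cre.

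Each group had 1 library, so no difference below has a replicate check and none was tested. The E2f3 lists held 14843 sites in Rb KO villus, 7405 in control villus, 27396 in Rb KO crypt and 32666 in control crypt. The Myc lists held 31397 sites in Rb KO crypt, 159181 in control crypt, 4119 in Rb KO villus and 7223 in control villus. Sequencing depth is unknown for all of them, and a longer list finds more genes. The score is the authors' value per site, with a cap of 999 and no stated meaning or scale between lists, so it is used here to place a site within its own list. In these bulk cell fractions, a site in fewer cells and a weaker site in every cell cannot be told apart. Site lists do not show the deletion of Rb or the markers of crypt and villus cells, so those labels could not be checked.

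During mitosis, kinetochores that are not yet attached to the spindle set off the checkpoint. The kinases Ttk (Mps1) and Bub1 act upstream, and Mad2l1, Bub1b (BubR1) and Bub3 join Cdc20 in an inhibitory complex. Once all kinetochores are attached, Cdc20 is released and activates the APC/C, a ubiquitin ligase built from subunits such as Anapc7 and charged by the ubiquitin-conjugating enzyme Ube2c. The APC/C then marks securin and cyclin B for destruction. Fzr1 (Cdh1) takes the place of Cdc20 at the end of mitosis and in G1, and Fbxo5 (Emi1) inhibits the complex during S and G2 phase. Many genes of this machinery are known to be transcribed late in the cell cycle, through promoters that carry a cell cycle homology region (CHR) next to an E2F-like or CDE element. E2f3 is an activating member of the E2F family, which Rb restrains.

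The sequences under the E2f3 sites of 6 members are shown. They were picked because each has a CHR element within 50 bp of its best Rb KO site. Fbxo5 and Fzr1 also had E2f3 sites within 1 kb of a start site. They are left out here because their best sites had no CHR element within 50 bp. Each is given 5′ to 3′ along its gene as 30 bases of the mouse build mm9 that span the site and the nearest CHR element. Capitals mark the CHR element (TTTGAA or TTCGAA, or TTCAAA where TTTGAA lies on the other strand) and the short E2F core GCGGG. Bub1 (minus strand) is chr2:127657568-127657597, Bub1b (plus) chr2:118423980-118424009 and Mad2l1 (plus) chr6:66485428-66485457. Ttk (plus) is chr9:83728285-83728314, Ube2c (plus) chr2:164595381-164595410 and Anapc7 (plus) chr5:122872196-122872225.
Bub1: gcggctgcGCGGGgaaTTCGAAtcgccggc
Bub1b: cgttaaaTTTGAAacttggcggcccgtgcg
Mad2l1: agttattTTTGAAccgggtgGCGGGgaata
Ttk: ggaaggcaGCGGGgaaatTTCAAAcgtgtt
Ube2c: cgcaGCGGGagggttgcaaTTCAAAcgcgg
Anapc7: cccttgcgcgcctgaTTCGAAaattcaatt

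In villus, E2f3 sites lay within 1 kb of a start site at most of these genes in Rb KO mice and at none of them in control mice. Within 1 kb of a start site, 7 of the 10 genes had an E2f3 site in Rb KO villus, where 13.0% of all protein-coding genes did. In control villus 0 of the 10 had a site, and 4.84% of all genes did. For 10 genes, a count of 0 is near that share. The 7 genes were Bub1, Bub1b, Mad2l1, Ttk, Ube2c, Fbxo5 and Anapc7. A site in Rb KO villus with none in control villus was found for 8.98% of all genes, and the reverse for 0.823%. Within 5 kb, 8 genes had a site in Rb KO villus and 1, Bub3, in control villus, against 19.2% and 8.46% of all genes. The control villus list was the shorter. With the highest-scored 7405 sites of each list, 6 genes had a site in Rb KO villus and 0 in control villus. The share of all genes in Rb KO villus at that length is not given here, so the effect of list length was not tested.

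**Figure D1:**
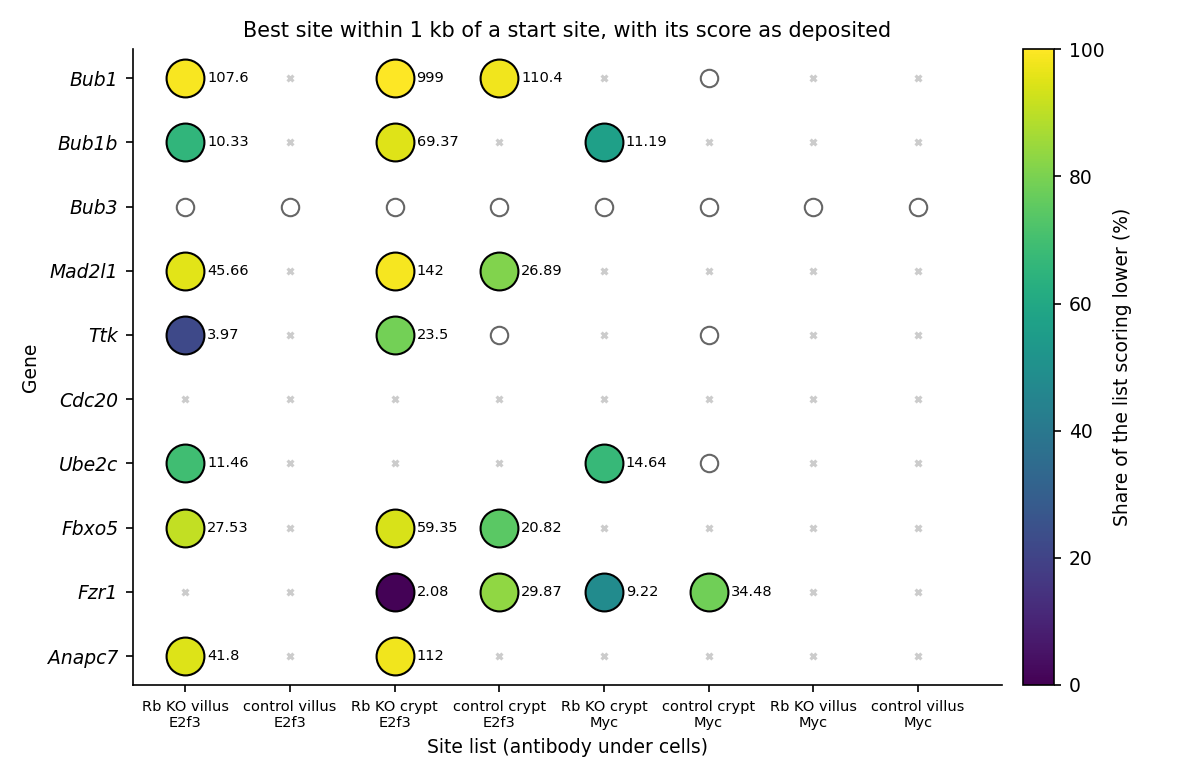
Sites at the 10 genes in the 8 lists. A large circle is a site at most 1 kb from a start site, coloured by the share of its list that scored lower (percent) and labelled with its deposited score; a small open circle is a site within 5 kb only, and a cross means no site within 5 kb. The control villus E2f3 column has no large circle, and Cdc20 has crosses throughout.

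In crypt, E2f3 was found at 7 of the 10 genes in Rb KO mice and at 4 in control mice, where 21.2% and 15.8% of all genes had one at this distance. Bub1, Mad2l1, Fbxo5 and Fzr1 had a site in both crypt lists, as had 12.9% of all genes. Bub1b, Ttk and Anapc7 had one in Rb KO crypt only, as did 8.35% of all genes. No member had a site in control crypt only, which for 10 genes is near the 2.91% of all genes that did. The control crypt list was the longer of the 2. Fzr1 counted in Rb KO crypt only through a site of score 2.08 inside the gene, described below. Within 5 kb, 8 genes had a site in Rb KO crypt and 6 in control crypt, against 31.3% and 28.3% of all genes. Villus was also set beside crypt within each genotype. In Rb KO mice, 6 genes had a site in both, as had 11.4% of all genes. Ube2c had one in villus only and Fzr1 in crypt only, as had 1.64% and 9.86% of all genes. In control mice, 0 of the genes had a site in villus and 4 had one in crypt only, as had 11.4% of all genes (0.454% had one in villus only). These comparisons share lists with those between genotypes.

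**Figure D2:**
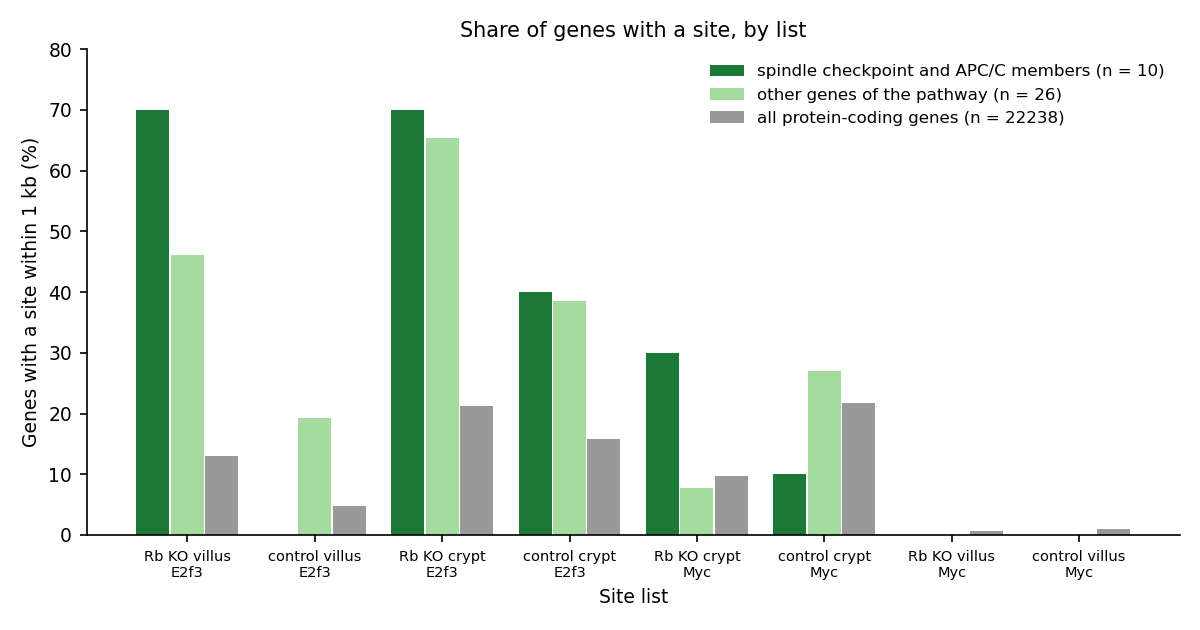
Percent of genes in each list that have a site at most 1 kb from a start site (bars from 0), for the 10 genes, the 26 other genes of the pathway and all 22238 protein-coding genes. The 10 genes stand at 70% in both Rb KO E2f3 lists, at 40% in control crypt and at 0% in control villus.

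Among the checkpoint kinases, Bub1 had the highest score of all members in each E2f3 list where it had a promoter site. Bub1 phosphorylates histone H2A at the centromere and recruits other checkpoint proteins. Its E2f3 site scored 107.61 in Rb KO villus, was absent in control villus, stood at the cap of 999 in Rb KO crypt and scored 110.39 in control crypt. It ranked 171 of 14843 sites in Rb KO villus and 661 of 32666 in control crypt. Counted by gene, Bub1 ranked 101 of 2890 genes with a site in Rb KO villus and 242 of 3510 in control crypt. The site lay on chromosome 2 at 127657589, 127657588 and 127657587 in those 3 lists, within 2 bp and 12 to 14 bp inside the 5′ UTR of ENSMUSG00000027379.7. The nearest control villus E2f3 site was 150.374 kb away. In every list the site lay on the GCGGG core shown above, with the centre of the CHR element 8.5 to 10.5 bp further into the gene.

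Ttk, the kinase that starts checkpoint signalling at kinetochores, had a weaker site at the same kind of place. It scored 3.97 in Rb KO villus, where 77.8% of the list ranked at or above it, and 23.5 in Rb KO crypt. The sites lay on chromosome 9 at 83728285 and 83728292, 11 and 4 bp upstream of the start of ENSMUSG00000038379.8. A further Rb KO crypt site of score 2.4 lay 114 bp inside the gene. Control villus had none within 98.268 kb. In control crypt the nearest site, with a score of 12.6, lay 1484 bp upstream and so counted within 5 kb only. The Ttk site in Rb KO villus dropped out when only sites scoring 10 or more were used.

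Of the checkpoint proteins that bind Cdc20, Mad2l1 and Bub1b had E2f3 sites and Bub3 had none at its promoter. Mad2l1, which is turned into its closed, Cdc20-binding form at unattached kinetochores, scored 45.66 in Rb KO villus, 142.01 in Rb KO crypt and 26.89 in control crypt, with no site in control villus. These sites lay on chromosome 6 between 66485439 and 66485446, 7 bp apart at most. They fell 55 to 62 bp downstream of the most upstream coding start of ENSMUSG00000029910.8, within its 5′ UTR, and 16 to 23 bp upstream of another coding start. Relative to its own list, the site ranked 407 of 27396 in Rb KO crypt and 6162 of 32666 in control crypt.

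Bub1b, which acts as a pseudosubstrate inhibitor within the checkpoint complex, had its E2f3 sites in the Rb KO lists. In Rb KO villus a pair of sites scored 10.33 and 8.2, at 5 bp upstream and 50 bp downstream of the start of ENSMUSG00000040084.8. In Rb KO crypt a single site scored 69.37, 51 bp downstream of the start on chromosome 2 at 118423998. The downstream site lay in the 5′ UTR, 7.5 to 8.5 bp from the centre of the CHR element. The upstream site lay 1 bp from the centre of a GCGGG core. The nearest E2f3 site was 39.586 kb away in control villus and 39.593 kb away in control crypt.

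Bub3, the WD-repeat protein that carries Bub1 and Bub1b to kinetochores, differed from the other checkpoint members. It had no site within 1 kb in any list, and a site within 5 kb in all 8. These 8 sites lay within 63 bp on chromosome 7, from 138707098 to 138707161, in an intron 3193 to 3256 bp downstream of the start of ENSMUSG00000066979.5. Their scores were 22.63 in Rb KO villus E2f3, 23.86 in control villus E2f3, 28.74 in Rb KO crypt E2f3 and 47.46 in control crypt E2f3. With the Myc antibody they were 32.77 in Rb KO crypt, the cap of 999 in control crypt, 10.66 in Rb KO villus and 21.43 in control villus. The site was thus listed whatever the antibody, cell type or genotype. A site within 5 kb in all 8 lists was found for 311 genes, or 1.40% of all.

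**Figure D3:**
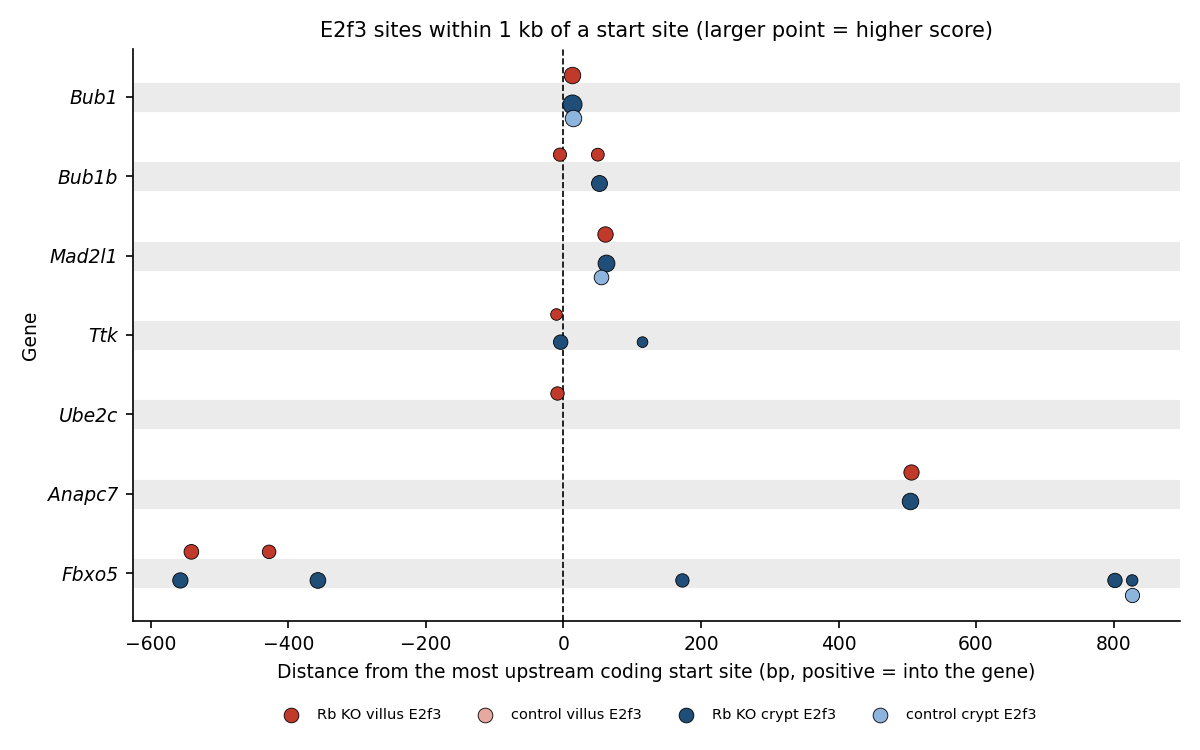
E2f3 sites within 1 kb of a start site at 7 genes, by distance from the gene's most upstream coding start (bp, positive into the gene). Fzr1, which had E2f3 sites within 1 kb in both crypt lists, is not drawn. Colours give the list and larger points a higher score. Sites of different lists coincide at Bub1, Mad2l1 and Anapc7, while those of Fbxo5 spread over more than 1 kb, and no point belongs to control villus.

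The activators of the APC/C, Cdc20 and Fzr1, had no E2f3 site within 1 kb in either villus list. Cdc20, the target of the checkpoint, had no site within 5 kb in any of the 8 lists. The nearest E2f3 site was 7.817 kb away in Rb KO villus and in both crypt lists, and 49.465 kb away in control villus. The nearest Myc sites were 8.45 kb away in Rb KO crypt and 7.951 kb away in control crypt. In control crypt, Fzr1 had an E2f3 site of score 29.87 on chromosome 10 at 80841296, 35 bp upstream of its most upstream coding start, which Rb KO crypt lacked. Both crypt E2f3 lists had a low-scored site (2.08 in Rb KO, 3.26 in control) 6416 to 6418 bp downstream of that start, in an intron and 685 to 687 bp upstream of an internal start. Within 1 kb of the most upstream coding start alone, Fzr1 had an E2f3 site in control crypt and none in Rb KO crypt.

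Around the Cdc20 start, the CHR element was present and the E2F core was not within 50 bp. The 100 bases of mm9 before the start of Cdc20 (chr4:118109958-118110057, minus strand) are given in the same way as above, with the CHR element and the CCAAT box, which NF-Y binds, in capitals.
Cdc20: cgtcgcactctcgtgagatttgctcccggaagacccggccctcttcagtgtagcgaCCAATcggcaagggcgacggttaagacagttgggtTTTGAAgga
The CHR element ended 4 bp upstream of the start, and the CCAAT box ended 40 bp upstream of it. From 250 bp before to 50 bp after the start, the nearest GCGGG or CCCGC lay 185 bp upstream. Bub3 likewise had a CHR element, between 64 and 59 bp upstream of its start, a pair of CCAAT boxes and no GCGGG or CCCGC in the same window. No match says only that these letters are absent from the window.

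The ubiquitin-conjugating enzyme Ube2c was the member with an E2f3 site in a single list. In Rb KO villus the site scored 11.46, rank 4529 of 14843, at position 164595388 of chromosome 2, which is 10 bp before the first base of ENSMUSG00000001403.7. The nearest E2f3 site was 44.381 kb away in control villus, 35.643 kb away in Rb KO crypt and 44.393 kb away in control crypt. The site lay 1 bp from the centre of a GCGGG core and 14.5 bp from the centre of the CHR element. The non-coding gene Gm11457 starts 232 to 279 bp away on the other strand.

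Anapc7, a tetratricopeptide subunit of the APC/C scaffold, had a high-ranked E2f3 site in both Rb KO lists and none in the control lists. It scored 41.8 in Rb KO villus (rank 756 of 14843) and 112.02 in Rb KO crypt (rank 604 of 27396), at 122872207 and 122872206 on chromosome 5. This position lies 246 to 247 bp upstream of 1 coding start of ENSMUSG00000029466.5 and in an intron of a longer transcript. The nearest E2f3 site was 206.375 kb away in control villus and 41.574 kb away in control crypt. Like the downstream Bub1b site, it had a CHR element but no GCGGG core within 50 bp.

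Fbxo5, the inhibitor of the APC/C, had more than 1 E2f3 site in each Rb KO list. In Rb KO villus it had sites scoring 27.53 and 12.95, at 541 and 428 bp upstream of the start of ENSMUSG00000019773.7. Rb KO crypt had 5 sites: the highest, with a score of 59.35, lay 357 bp upstream of the start, and the next, with 43.55, lay 557 bp upstream. The other 3, scoring 22.68, 11.3 and 3.62, lay 802, 173 and 827 bp downstream. Control crypt had a single site of score 20.82, at the last of these positions, and control villus had none within 5 kb. The upstream sites were thus listed in the Rb KO lists and not in the control lists, while the downstream position was listed in both crypt lists. At the downstream position, chr10:4541754-4541783, the 30 bases held the core as CCCGC.
Fbxo5: tccgcgcttatctCCCGCcttccctcgtgc

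Few of the best member sites had the long E2F motif, and most of those in the Rb KO lists had a CHR element. The E2F motif was searched on either strand as TTCCCGC or as TTCGCGC, and also as TTGCCGC or as TTGGCGC. Of the 7 best sites in Rb KO villus, 1 (Fbxo5, with the motif 35 bp away) had it within 50 bp and 6 had a CHR element. Of the 7 in Rb KO crypt, 0 had the long motif and 5 had a CHR element (the TTTGAA or TTCGAA of Bub1, Bub1b, Mad2l1, Ttk and Anapc7). Of the 4 in control crypt, 0 and 2 did. These counts leave out lower-scored sites of the same gene. The second Fbxo5 site had the long motif 19 bp away in Rb KO crypt (score 43.55) and 20 bp away in Rb KO villus (score 12.95). Among all sites within 1 kb of a start, the long motif was within 50 bp of 36.6% in Rb KO villus, 31.4% in Rb KO crypt and 36.3% in control crypt. For the CHR element these shares were 8.84%, 7.38% and 7.10%. Around all coding start sites they were 4.81% for the long motif and 4.52% for the CHR element. The GCGGG core was within 50 bp of 5 of 7 best sites in Rb KO villus and 4 of 7 in Rb KO crypt, beside 78.4% and 79.1% of all such sites. The core overlaps the long motif TTCCCGC. Counted within 25 bp, the CHR element was at 5 of the 7 best sites in Rb KO villus, where the upstream Bub1b site scored higher than the downstream one beside the element.

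The same shares were taken for genes with a site in Rb KO villus alone and for genes with a site in both villus lists, with no test of a difference. Over all genes, the best Rb KO villus site had the long E2F motif within 50 bp in 29.1% of cases where control villus had no site (517 of 1778 sites), and in 55.5% where it had one (431 of 777). The shares for the CHR element, 9.79% and 7.72%, and for the GCGGG core, 80.1% and 77.3%, lay closer together. In crypt, the best Rb KO site had the long motif in 20.8% of cases without a control site and in 40.1% with one. The CHR shares there, 7.08% and 8.46%, had the opposite order to those in villus. All 7 members with an Rb KO villus site belonged to the class without a control villus site. Over all genes, 1996 of the 2890 with an Rb KO villus site did. For the members this follows from the absence of any control villus site within 1 kb.

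**Figure D4:**
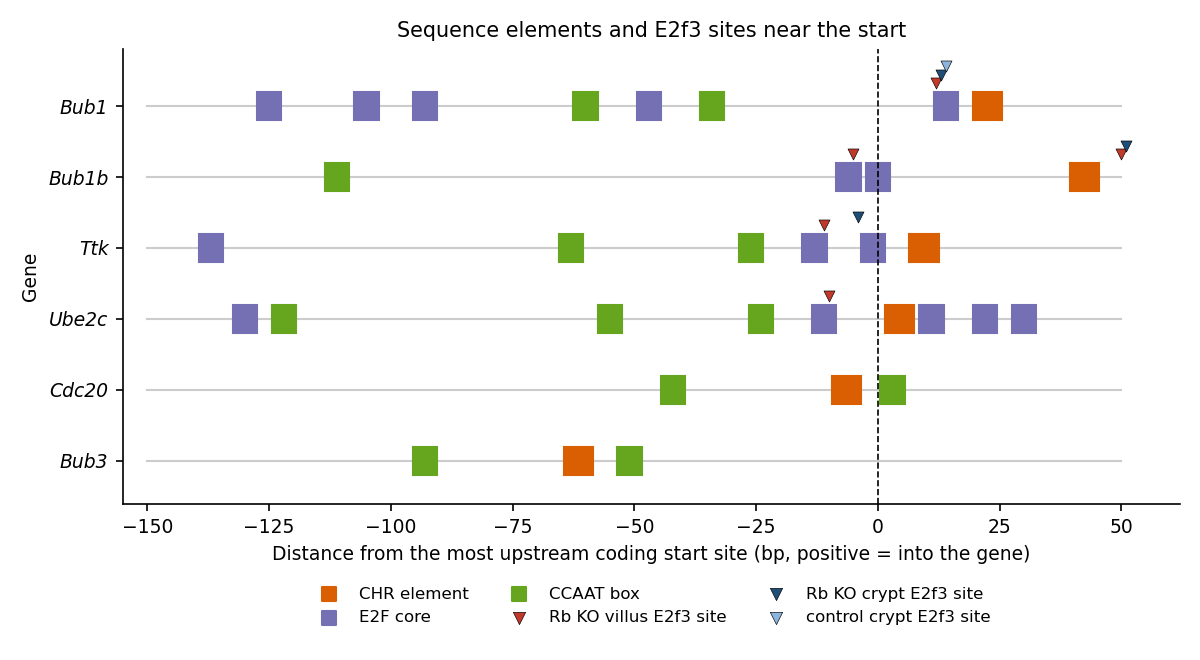
CHR elements (orange), GCGGG cores on either strand (purple) and CCAAT boxes (green) from 150 bp before to 50 bp after the most upstream coding start of 6 genes, with E2f3 sites as triangles coloured by list. The 6 genes are the members with a CHR element from 250 bp before to 50 bp after that start. At Bub1, Ttk and Ube2c the triangles sit over or beside a core with the CHR element just downstream. Cdc20 and Bub3 have a CHR element, no core in the window drawn and no triangle.

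In the 301-bp window from 250 bp before to 50 bp after the most upstream coding start, 6 of the 10 members had a CHR element (Bub1, Bub1b, Bub3, Ttk, Cdc20 and Ube2c), where 16.6% of all coding start sites did. A CCAAT box was found in 7 of 10, against 35.8%, and the GCGGG core in 8 of 10, against 56.6%. The long E2F motif was found in 0 of 10, which for 10 genes is near the 12.0% of all coding start sites. The E-box CACGTG, the sequence Myc binds with Max, was found in 2 of 10 (Ttk and Ube2c), against 7.68%. The CHR elements of Mad2l1 and Anapc7 lie outside this window.

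Fewer of these genes had a Myc site than an E2f3 site within 1 kb in both crypt groups and in Rb KO villus. Within 1 kb, 3 genes had a Myc site in Rb KO crypt (Bub1b, Ube2c and Fzr1) and 1 in control crypt (Fzr1), where 9.63% and 21.7% of all genes did. For 10 genes, the control crypt count is near its share. Bub1b and Ube2c had a Myc site in Rb KO crypt only, as had 3.18% of all genes. In control crypt only, 0 had one, which for 10 genes is near the 15.3% of all genes. In Rb KO villus and control villus 0 of the 10 had one, near the 0.607% and 1.05% of all genes that did. Within 5 kb, 4 genes had a Myc site in Rb KO crypt and 5 in control crypt, against 22.9% and 57.2% of all genes, so the control crypt share was near the background. In both villus lists Bub3 alone had a Myc site within 5 kb, against 2.69% and 4.49% of all genes. When each Myc list was limited to its 4119 highest-scored sites, no member had a Myc site within 1 kb. The shares of all genes in crypt at that length are not given here.

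The Ube2c Myc site lay on an E-box. It scored 14.64 in Rb KO crypt, rank 10373 of 31397, at 164595153 of chromosome 2, which is 245 bp before the gene and 13 bp from a start of Gm11457. The 30 bases around it, chr2:164595139-164595168 on the plus strand, are given with the E-box in capitals.
Ube2c: ggcggcgaataCACGTGgaccggtccttgg
An E-box was within 50 bp of 27.4% of Rb KO crypt Myc sites at promoters and of 3.44% of those in control crypt. Around all coding start sites the share was 2.93%, so the control crypt share was near the background. In control crypt the nearest Myc site to Ube2c scored 4.42 and lay 2219 bp downstream.

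The other Myc sites had no E-box within 50 bp. At Bub1b the Rb KO crypt Myc site scored 11.19 and lay 8 bp upstream of the start, 3 bp from the upstream Rb KO villus E2f3 site. At Fzr1 the Myc sites scored 9.22 in Rb KO crypt and 34.48 in control crypt, at 80834816 and 80834838, in the same intron as the low-scored E2f3 sites at 80834845 and 80834843. Bub1b and Fzr1 had both a Myc and an E2f3 site in Rb KO crypt, as had 5.46% of all genes, while Bub1, Mad2l1, Ttk, Fbxo5 and Anapc7 had an E2f3 site alone and Ube2c a Myc site alone. In control crypt Fzr1 had both, as had 7.43% of all genes, and Bub1, Mad2l1 and Fbxo5 had an E2f3 site alone. Across all genes, 4.17% had a Myc site without an E2f3 site in Rb KO crypt and 15.8% the reverse. In control crypt these shares were 14.3% and 8.35%.

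Among 26 other genes of the pathway, more had an E2f3 site in each Rb KO list than in its control, as over all genes. Control villus was not empty. Within 1 kb, 12 had an E2f3 site in Rb KO villus, 5 in control villus, 17 in Rb KO crypt and 10 in control crypt. These are 46.2%, 19.2%, 65.4% and 38.5% of the 26, against 13.0%, 4.84%, 21.2% and 15.8% of all genes. For Myc the counts were 2 in Rb KO crypt, 7 in control crypt and 0 in both villus lists. The crypt counts, 7.69% and 26.9% of the 26, were near the 9.63% and 21.7% of all genes. The 5 with the highest E2f3 scores were the same in Rb KO villus and Rb KO crypt. Zw10, a subunit of the complex that brings dynein and Mad proteins to kinetochores, scored 148.88 in Rb KO villus, 6.18 in control villus, 999 in Rb KO crypt and 253.55 in control crypt. Kntc1, its partner, scored 120.69, 34.67, 999 and 999 in the same order of lists. Ube2s, which extends ubiquitin chains on APC/C substrates, scored 95.03 in Rb KO villus, 141.54 in Rb KO crypt and 15.71 in control crypt. Espl1, the separase, scored 44.53, 199.33 and 60.24 in those 3 lists. Anapc5, an APC/C subunit, scored 61.55 in Rb KO villus, 57.5 in control villus, 195.1 in Rb KO crypt and 174.48 in control crypt.

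The genes with a control villus site were Anapc2, Anapc5, Cdc26, Zw10 and Kntc1. Cdc26, a small APC/C subunit, scored 2.98 there and Anapc2, the cullin subunit, 3.65. Of these 5, Anapc2, Anapc5 and Zw10 had the long E2F motif within 50 bp of the control villus site. This is near the 54.6% of all control villus E2f3 sites within 1 kb of a start that had it. The sequences at Anapc5 (chr5:123270952-123270981, minus strand, 381 bp inside the gene in an intron) and Zw10 (chr9:48863518-48863547, plus strand, 213 bp upstream) are given with the motif, core and CHR element in capitals, for comparison with the members above.
Anapc5: gcgCCCGCtctTTCCCGCccattaccgcac
Zw10: ccgGCGGGAAcagactggcgTTTGAAaacc
At both genes the site lay at the same base in all 4 E2f3 lists. Zw10 had the long motif and a CHR element 16.5 bp from the site. Kntc1 had a CHR element and no long motif within 50 bp of its best control villus site. Anapc11 and Ccdc99, with no control villus site, had the long motif within 50 bp of their best Rb KO villus site. Both elements were thus found at genes with and without a control villus site, and no difference was tested. Of the 12 genes with a Rb KO villus site, 5 had the long motif and 5 a CHR element within 50 bp of the best site.

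Over the 8 lists, the commonest pattern among the members was an E2f3 site in Rb KO villus, Rb KO crypt and control crypt and in no other list. Bub1, Mad2l1 and Fbxo5 had it, and so did Anapc11, Ube2s, Mad1l1 and Espl1 among the other pathway genes and 571 genes, or 2.57%, in all. The same 1-kb presence in 8 lists is the measure of likeness. Ttk and Anapc7 had a site in the Rb KO villus and Rb KO crypt E2f3 lists alone, as had Ccdc99 (Spdl1) and 375 genes, or 1.69%, in all. Bub3 and Cdc20 had no site within 1 kb in any list, as had 61.7% of all genes. Bub1b, Ube2c and Fzr1 each had a pattern of their own among the members, found in 43, 15 and 186 genes.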

How the data were processed

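The submitters' processing notes name Bowtie2 2.2.1, MACS2 2.0.10 and the build mm9. By their file names, the deposited lists are GEM binding events within MACS2 peaks of merged data, without removal of duplicates. The sources used here do not say what was merged or give thresholds, read numbers or the meaning of the score. The authors' deposited lists give 1-bp positions with a score. The nearest E2F motif centre lay at a median of 1 bp past the deposited positions on both strands in all 4 E2f3 lists, so 1 was added. Start sites were those of all transcripts of 22238 protein-coding genes in GENCODE M1, and sequence came from NCBIM37, the assembly under mm9, read with pysam 0.24.0 under Python 3.11.15. Distances are a site's position minus the start's along the gene. The assignment of sites to genes was tested on planted sites.

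The members and lists were chosen with earlier results of these data known. All 26 other pathway genes were found, Anapc15 and Spdl1 under the older symbols 3200002M19Rik and Ccdc99, which the RefSeq gene table pairs. The text names those with the 5 highest E2f3 scores in Rb KO villus and crypt, those with a control villus site, and those sharing a member pattern. Ccdc99 was named after its values were seen. With 1 library per group no test was made. The search for GCGGG was chosen after the sequences had been seen.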

Additional observations from a re-analysis of the deposited data

How the results depend on the processing

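With 1 library per group and no stated depth, an absent site means only that the authors' list has none. The 7 genes with an E2f3 site in Rb KO villus and none in control villus became 6 with sites at or above the list median, with scores of 10 or more, and at equal list length, and stayed 7 in the other 4 planned settings. Of 103 alternative values for 15 counts, 87 stayed within 1.5 times the reported one. Apart from the 5 kb window, the shares of all genes under these settings are not given here. The members with an E2f3 site in control crypt and none in Rb KO crypt, 0 as reported, became 1 (Fzr1) within 500 bp, with sites at or above the median, with scores of 10 or more, at equal length, and from the most upstream start. Within 5 kb, members with a site became 1 in control villus E2f3, Rb KO villus Myc and control villus Myc, and 5 in control crypt Myc. The 1 member with a control crypt Myc site became 0 within 500 bp, at equal length, from the most upstream start, and, added later, from the most upstream coding start. The 3 in Rb KO crypt Myc became 0 at equal length. Of the 11 E2f3 regions at members, 0 had the long E2F motif within 50 bp of the best site and 5 within 250 bp, while 6 had the shorter core within 50 bp. Lower-scored sites of the upstream Fbxo5 region had the long motif within 50 bp. No paired analysis was possible because each group had 1 library. Among other pathway genes, the 5 in control villus E2f3 became 2 with sites at or above the median or scoring 10 or more, and at equal length the 17 in Rb KO crypt became 11 and the 10 in control crypt became 4.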

Other observations

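Several lists without a site at a member's promoter had their nearest site at a common place further away. Near Mad2l1, the control villus E2f3 site at 66494804 and the Myc sites at 66494818 in Rb KO crypt, 66494817 in Rb KO villus and 66494831 in control villus all lay between 9.132 and 9.159 kb from a start site. Near Ube2c, the sites at 164639796 in Rb KO villus Myc, 164639795 in control villus Myc, 164639784 in control villus E2f3 and 164639796 in control crypt E2f3 lay 44.381 to 44.393 kb away. Near Bub1b, the sites at 118384361 in control villus E2f3, 118384354 in control crypt E2f3 and 118384342 in control villus Myc lay 39.586 to 39.605 kb away. Like the intronic Bub3 position, these places were listed with both antibodies. What these positions are was not tested.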
